A study of Mus musculus with 12 samples.

Results

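In MC38, a mouse colon carcinoma line, IFN raised all 10 tested guanylate-binding protein genes, the PD-L1 gene Cd274 and 17 of 26 cholesterol synthesis genes, and lowered 13 of 22 hypoxia genes and 9 of 17 collagen genes. Over all tested genes 4.66% rose and 4.72% fell. The comparison covers 6 of the 12 poly-A RNA-seq libraries of the series. They are the 3 libraries whose titles name MC38 with IFN and the 3 whose titles name MC38 alone, and all 16676 of the 51826 genes in the deposited count table that had enough counts were tested. Wild-type MC38 cells given IFN (n = 3 libraries) were set against untreated wild-type MC38 cells (n = 3). The other 6 libraries, Smarcd1 knockout MC38 cells with IFN and without it (n = 3 each), entered the fit and are otherwise used for the check of Smarcd1 and for the comparison with the knockout response. The type of IFN, its dose and its duration are not given in the labels, and they do not state separate cultures for the samples within a group, so the p-values measure only the spread between these samples.

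Interferons are secreted proteins that bind a receptor at the cell surface and activate JAK kinases, which phosphorylate STAT transcription factors. Type II interferon (IFN-gamma) acts mainly through STAT dimers bound to gamma-activated sites, whereas type I interferons act mainly through the ISGF3 complex bound to interferon-stimulated response elements. In tumour cells these pathways are known for raising antigen presentation, T cell-attracting chemokines and the checkpoint ligand PD-L1.

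The 6 libraries held between 31752685 and 36394538 counts, with 22610 to 23314 genes detected. Mitochondrially encoded genes took 1.52% to 2.63% of counts in the IFN libraries and 1.61% to 1.62% in untreated libraries 1 and 3, against 4.82% in untreated library 2, which stood apart. The part of this share in the results was not tested, and several results are also given without that library. In 6 samples the characteristics contradict the title, giving the libraries titled MC38 with IFN as untreated knockouts and the reverse; the groups here follow the titles, and every direction below rests on them. Smarcd1 had 86.5, 99.6 and 123 CPM in wild-type IFN libraries and 85.1, 106 and 81.8 CPM in untreated wild-type libraries. It averaged 59.8 CPM in libraries titled knockout with IFN and 51.5 CPM in those titled knockout alone, so the transcript was lower but present under the knockout titles. CPM are counts scaled to library size with TMM factors, and each fold change below is the log2 ratio of IFN over untreated from edgeR, followed by its standard error. Of 11 markers of colorectal epithelium, 9 lay below 1 TPM in all 6 libraries and 3 (Epcam, Krt20 and Cdx2) were at 0, with a summed level of 1.11 to 1.47 TPM with IFN and 4.28 to 4.91 TPM without. Of 10 leukocyte markers, 9 lay below 1 TPM and 5 were at 0 (among them Cd3e, Cd8a, Nkg7 and Adgre1). The sum of all 10 was 8.77 to 16 TPM with IFN and 13 to 17.6 TPM without. Cd68 alone made up 8.24 to 15.8 TPM with IFN and 12.7 to 17.4 TPM without. Markers of fibroblasts and endothelium summed to 219 to 247 TPM with IFN and 155 to 182 TPM without, of which Dcn, decorin, made up 170 to 199 TPM with IFN and 88.9 to 121 TPM without. The fibroblast markers Pdgfra (21.6 to 26.2 TPM with IFN and 30.5 to 32.5 TPM without), Pdgfrb (16.3 to 18 and 19.5 to 21.3 TPM in the same order) and Col1a1 (3.92 to 4.98 and 8.84 to 11 TPM) had lower values with IFN, though Pdgfrb did not pass the test (log2 fold change -0.18, adjusted p = 0.235). Dcn and the endothelial marker Cdh5 (1.21 to 3.27 TPM with IFN and 0.79 to 1.11 TPM without) went the other way. The ranges of Pecam1 and Kdr overlapped between the groups. In bulk RNA, fewer cells of a type and less RNA per cell cannot be told apart, and the part of these markers in the results was not tested.

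IFN changed 1564 of 16676 genes (9.38%) at an adjusted p below 0.05. Of these, 777 rose (4.66%) and 787 fell (4.72%), and the median log2 fold change of all tested genes was -0.0008. The list counts below are to be read against these shares of 4.66% higher and 4.72% lower. The rise was steeper than the fall at the extremes: 194 genes rose and 158 fell at least 2-fold, and 57 rose and 30 fell at least 4-fold. The genes that rose at least 2-fold summed to 15290, 15560 and 16940 TPM in IFN libraries and 5498, 5344 and 5541 TPM in untreated libraries. The genes that fell at least 2-fold summed to 632.7, 605.2 and 596.7 TPM with IFN and 1578, 1549 and 1548 TPM without. Of the summed gain of 10470 TPM, the chemokine genes Cxcl10 and Ccl2 made up 20.8% and 10.5%, and 12 genes made up 63.2%. The count of calls was 1783 without untreated library 2, 883 without IFN library 2 and 1032 without untreated library 3. It was 648 when the 6 wild-type libraries were fitted alone.

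**Figure D1:**
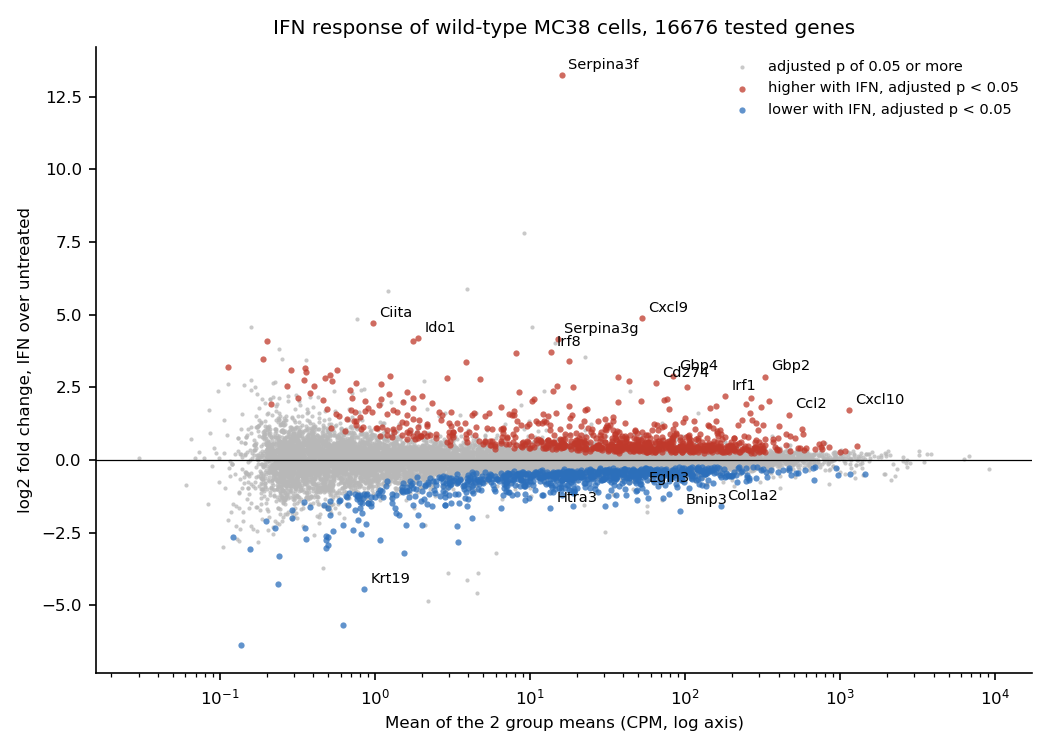
Each point is 1 of the 16676 tested genes in wild-type cells. The horizontal axis is the mean of the IFN and untreated group means in CPM on a log axis and the vertical axis is the log2 fold change, IFN over untreated; red points rose, blue points fell and grey points did not pass an adjusted p of 0.05. Cxcl9 stands at 4.88 and Gbp2 at 2.87 among well-measured genes, Bnip3 at -1.75 and Col1a2 at -1.59, and the value of Serpina3f, which had 0 counts in untreated cells, depends on the prior count of the fit.

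The transcription factor Irf1, an early target of the pathway that in turn activates many interferon genes, rose strongly while the receptor and kinase genes upstream of it did not pass the test. Irf1 (ENSMUSG00000018899, chromosome 11, 53770014 to 53778374, plus strand, GRCm38) had 277, 303 and 309 CPM in IFN libraries, against 65.0, 63.5 and 67.1 CPM in untreated libraries. The groups lay far apart (log2 fold change 2.18 ± 0.08, adjusted p = 9.53e-09). Irf8, a factor best known from myeloid cells, had 26.5, 23.6 and 25.6 CPM with IFN and 1.77, 1.89 and 2.11 CPM without (3.71 ± 0.14, adjusted p = 1.16e-08). Of 8 interferon regulatory factors 3 rose and 2 fell. Irf2, which competes with Irf1 for the same sites, rose by 0.74 but lost its call without any of IFN libraries 1 and 3 and untreated libraries 1 and 3 (adjusted p up to 0.144). Irf4, a lymphoid factor, fell by 1.82 from a low level (0.527, 0.479 and 0.781 CPM with IFN, 1.97, 2.39 and 1.98 CPM without). Irf7, the amplifier of type I interferon, fell by 0.43, a call lost without IFN library 1 or 2 (adjusted p up to 0.0552).

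Of 13 genes of the interferon receptors and JAK-STAT chain only Stat3 and Stat2 passed the test, both higher. Stat3, the main mediator of IL-6 family signals, had 116, 116 and 130 CPM with IFN and 52.0, 52.0 and 48.3 CPM without (1.25 ± 0.08, adjusted p = 7.01e-07). Stat2, the ISGF3 subunit, rose less (0.36 ± 0.06, adjusted p = 0.00327; 0.0532 with the 6 wild-type libraries alone). The receptor chain genes Ifngr1 (-0.19 ± 0.09) and Ifngr2 (0.08 ± 0.09) and the kinase gene Jak2 (0.33 ± 0.12) did not pass; Jak2 passed without untreated library 2 (0.45, adjusted p = 0.0237).

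Of 15 feedback inhibitors of cytokine signalling, 2 passed the test, and both rose. Socs1, the inhibitor of JAK kinases induced by IFN-gamma, had 42.0, 42.0 and 47.8 CPM in IFN libraries and 21.7, 16.2 and 19.5 CPM in untreated libraries (1.20 ± 0.11, adjusted p = 3.13e-05). Socs3, which restrains IL-6 type receptors, rose by 0.81 (± 0.10, adjusted p = 0.000317).

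A list of 18 other genes linked to interferon held mostly transcription factors and regulators, and also the sensor gene Zbp1. Of these 18, 8 rose and 1 fell, with a median of 0.31. The gene that fell was Nfil3 (-0.41, named after its value was seen, adjusted p = 0.0595 with the 6 wild-type libraries alone). Ciita, the master regulator of MHC class II, had 1.61, 1.79 and 2.22 CPM with IFN and 0.0580, 0.0563 and 0.0916 CPM without (4.71 ± 0.38, adjusted p = 7.98e-06), so its rise began from near nothing and ended low. Nlrc5, the class I counterpart of Ciita, was abundant on either side: 416, 406 and 387 CPM with IFN and 164, 158 and 186 CPM without (1.25 ± 0.08, adjusted p = 6.17e-07). Batf2 rose by 2.50 (± 0.13), Cebpd by 1.35 (± 0.12), and Zbp1, a sensor of Z-form nucleic acids, by 0.81 (± 0.11). The other 3 that rose, Bcl6 (1.03), Sp110 (0.65) and Sp140 (0.55), were named after their values were seen, and the calls of the SP proteins were lost without untreated library 1 (adjusted p up to 0.0508 for Sp110 and 0.0716 for Sp140), that of Sp140 also without IFN library 2 or 3 or untreated library 3.

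The promoter of Irf1 is shown because it is an early target of the pathway and holds the motif that STAT dimers bind. In the RefSeq window of GRCm38.p6 from 250 bases before to 50 bases after the start (chr11:53769764-53770063, plus strand), capitals mark the match to TTCNNNGAA, the gamma-activated site, 90 to 82 bases before the start. No match to the core of the interferon-stimulated response element, GAAANNGAA on either strand, lay in this window.
Irf1: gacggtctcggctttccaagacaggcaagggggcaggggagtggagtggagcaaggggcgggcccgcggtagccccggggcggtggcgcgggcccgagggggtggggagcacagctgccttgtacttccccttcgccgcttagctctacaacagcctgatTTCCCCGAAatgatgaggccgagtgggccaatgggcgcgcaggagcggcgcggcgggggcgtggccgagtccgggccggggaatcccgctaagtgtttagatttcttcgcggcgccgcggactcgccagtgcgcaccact

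Guanylate-binding proteins (GBPs) and immunity-related GTPases (IRGs) are large interferon-induced GTPases that attack the membranes of intracellular pathogens, and they rose as whole families. All 10 tested GBP genes rose, with a median of 1.67, and their summed level was 1495, 1461 and 1424 TPM in IFN libraries, against 483.3, 519.7 and 510.2 TPM in untreated libraries. Of 11 IRG genes 10 rose, with a median of 1.84, and their sums were 2524, 2465 and 2382 TPM with IFN and 798.2, 780.2 and 827.1 TPM without. Over all tested genes 4.66% rose. The GBP count was 10 without any 1 wild-type library, and the IRG count 9 or 10.

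Gbp2 was the most abundant GBP of the IFN libraries (461 TPM on average, 65.1 TPM in untreated cells). Its values were 583, 585 and 565 CPM with IFN and 78.0, 77.6 and 82.1 CPM without (2.87 ± 0.11, adjusted p = 1.18e-08). Gbp4 had 141, 137 and 164 CPM with IFN and 19.2 to 20.7 CPM without (2.88 ± 0.10, adjusted p = 9.53e-09). Within each of these genes the 3 libraries of a group differed little beside the distance between groups. Gbp3 changed least (0.60 ± 0.09), and it was the GBP with the highest level in untreated cells (367 TPM with IFN, 244 TPM without). The members between them, Gbp5, Gbp10, Gbp7, Gbp8, Gbp9 and Gbp6, rose by 1.21 to 1.74. Gbp11 had 2.42, 2.07 and 2.16 CPM with IFN and 0.261, 0.0844 and 0.549 CPM without (2.90 ± 0.47).

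These families sit in clusters. Genes that rose at least 2-fold with starts no more than 200 kb apart formed 3 runs of 4 or more in the genome, and genes that fell formed none. On chromosome 5 (105014150 to 105346472), 7 of 7 tested genes rose, among them Gbp4, Gbp6, Gbp8, Gbp9, Gbp10 and Gbp11. On chromosome 11 (48861968 to 49135387), 6 of 13 tested genes rose, among them Irgm1, Tgtp1 and Tgtp2. On chromosome 18 (60220843 to 60442980), 6 of 6 tested genes rose, among them Iigp1, Gm4841 and F830016B08Rik.

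Of the IRG genes, Igtp (Irgm3), a regulatory member, had 490, 487 and 473 CPM with IFN and 145, 116 and 145 CPM without (1.83 ± 0.13). The other regulatory members, Irgm1 (1.15 ± 0.10) and Irgm2 (1.18 ± 0.10), rose less. The effector members Tgtp1 (2.11 ± 0.10), Tgtp2 (1.93 ± 0.13) and Iigp1 (2.02 ± 0.14) rose more: Tgtp1 had 443, 437 and 416 CPM with IFN, against 103, 94.1 and 103 CPM without. The predicted IRG genes Gm4841 (2.83 ± 0.12), Gm12250 (2.02 ± 0.14) and F830016B08Rik (1.76 ± 0.33) rose as well. Gm4951 rose by 0.71, a call lost without any of 4 libraries (IFN 1 and 2, untreated 1 and 3; adjusted p up to 0.0824), and Gm5431 did not pass (0.51 ± 0.30). Tgtp1 and Tgtp2 are near-identical copies, and GBP and IRG paralogs share sequence, so how reads were split among them is uncertain.

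The promoters of Gbp5, Tgtp1 and Igtp are shown for the layout of their motifs (GRCm38.p6; chr3:142496684-142496983, plus strand; chr11:48992197-48992496, minus strand; chr11:58199306-58199605, plus strand). Capitals mark matches to TTCNNNGAA, to GAAANNGAA on either strand and, in Gbp5 and Tgtp1, to the NF-kB motif GGANTTTCC on either strand. In Tgtp1 the gamma-activated site (88 to 80 bases before the start) is followed after 2 bases by the response element core (77 to 69), and Igtp repeats that arrangement at 45 to 37 and 34 to 26 bases. Gbp5 holds gamma-activated sites at 245 to 237 and 52 to 44 bases, a response element core at 164 to 156 and an NF-kB motif at 77 to 69; the NF-kB motif of Tgtp1 lies at 121 to 113 bases.
Gbp5: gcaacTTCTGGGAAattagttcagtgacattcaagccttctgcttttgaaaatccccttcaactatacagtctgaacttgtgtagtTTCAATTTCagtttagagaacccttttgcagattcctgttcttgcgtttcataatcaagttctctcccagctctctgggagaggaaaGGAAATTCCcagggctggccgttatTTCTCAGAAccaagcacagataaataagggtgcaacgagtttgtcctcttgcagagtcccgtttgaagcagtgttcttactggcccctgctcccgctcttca
Tgtp1: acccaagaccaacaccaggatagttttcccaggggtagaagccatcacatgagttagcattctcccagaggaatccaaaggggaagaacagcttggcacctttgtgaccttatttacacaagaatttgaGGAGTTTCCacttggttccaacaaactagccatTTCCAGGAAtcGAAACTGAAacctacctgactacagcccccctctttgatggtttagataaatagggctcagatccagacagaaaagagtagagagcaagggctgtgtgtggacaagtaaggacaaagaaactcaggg
Igtp: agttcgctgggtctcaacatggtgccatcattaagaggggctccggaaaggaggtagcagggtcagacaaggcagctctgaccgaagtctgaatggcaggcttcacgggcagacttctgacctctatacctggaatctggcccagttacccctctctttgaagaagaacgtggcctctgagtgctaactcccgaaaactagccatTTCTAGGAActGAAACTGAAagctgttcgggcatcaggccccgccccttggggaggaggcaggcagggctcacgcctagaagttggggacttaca

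**Figure D2:**
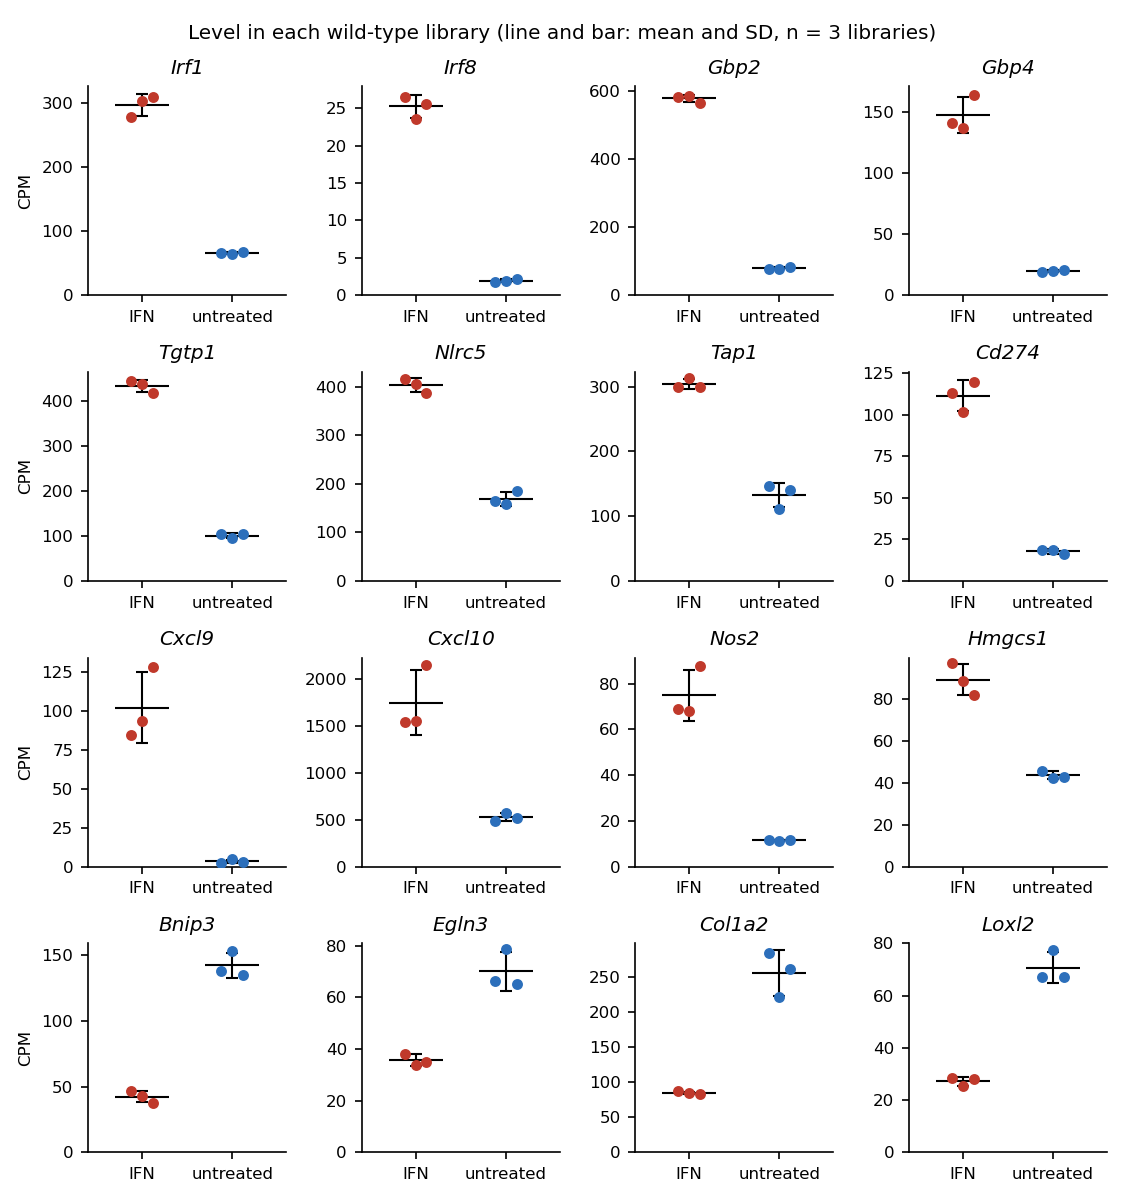
CPM of 16 genes in each wild-type library, IFN left (red) and untreated right (blue), with the mean as a line and the SD as a bar (n = 3 libraries). In the 12 raised genes every IFN library lies above every untreated library, as for Nlrc5 (387 to 416 against 158 to 186 CPM), and in Bnip3, Egln3, Col1a2 and Loxl2 every IFN library lies below.

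Antigen presentation moved unevenly: 6 genes that cut and load peptides rose, 1 class I gene did, and none of 4 tested class II genes passed. Of 13 immunoproteasome and peptide loading genes, 6 rose and none fell, with a median of 0.34. Tap1, a subunit of the peptide transporter, had 300, 313 and 300 CPM in IFN libraries and 147, 111 and 140 CPM in untreated libraries (1.20 ± 0.12, adjusted p = 3.44e-05). Tapbpl, a peptide editor of class I, had 55.0, 58.3 and 60.3 CPM with IFN and 23.4, 22.8 and 25.5 CPM without (1.28 ± 0.08, adjusted p = 9.89e-07). The immunoproteasome subunits Psmb10 (1.31 ± 0.21) and Psmb9 (1.20 ± 0.23) rose, Psmb9 with an adjusted p of 0.0532 when the 6 wild-type libraries were fitted alone. Psmb10 had 151, 142 and 121 CPM with IFN and 65.2, 35.7 and 66.0 CPM without, untreated library 2 being the low one. Psmb8, the third inducible subunit, did not pass (0.33 ± 0.12, adjusted p = 0.116). Erap1, which trims peptides in the endoplasmic reticulum, rose by 0.48 (± 0.10); Tap2 rose by 0.52, a call lost without any of the 3 IFN libraries or untreated library 3 (adjusted p up to 0.112). None of the 14 subunits of the constitutive 20S proteasome passed the edgeR test, with 1 at an unadjusted p below 0.05 and 0 called by DESeq2, and their median was 0.06; 1 passed without IFN library 1.

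Of 13 tested class I genes, H2-Q4 alone passed the test: 348, 340 and 339 CPM with IFN and 242, 183 and 246 CPM without (0.61 ± 0.10, adjusted p = 0.00188), with 19.1% of its exonic bases overlapping another gene. H2-K1, a classical class I gene, averaged 1540 TPM with IFN and 1370 TPM in untreated cells (0.20 ± 0.13, adjusted p = 0.409). The class I list had a median of 0.18, and its paralogs share reads to an unknown degree. Of 10 class II genes 4 had enough counts and none passed the edgeR test (0 at an unadjusted p below 0.05, 0 by DESeq2), with a median of -0.02; H2-DMa, which helps load class II molecules, had 2.73, 3.19 and 3.19 CPM with IFN and 3.16, 2.62 and 2.66 CPM without. These 4 were Cd74, H2-DMa, H2-DMb1 and H2-DMb2, and the other listed class II genes had too few counts to be tested. The rise of Ciita was thus not accompanied by a call among these 4 genes.

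Cd274, which encodes PD-L1, the ligand that restrains T cells through PD-1, rose more than any other of 13 tested checkpoint and costimulatory ligands. Cd274 (ENSMUSG00000016496, chromosome 19, 29367455 to 29388095, plus strand) had 113, 102 and 120 CPM in IFN libraries and 18.7, 18.9 and 16 CPM in untreated libraries. The groups were far apart (2.65 ± 0.11, adjusted p = 2.72e-08), and 14.1% of its exonic bases overlap an antisense gene. Tnfrsf14 (HVEM), which signals through BTLA and other partners, rose by 1.32 (± 0.17), and Pvr (CD155), a ligand of TIGIT and DNAM-1, by 0.52 (± 0.07). Cd276 (B7-H3) fell, with 15.6, 14.4 and 18.6 CPM in IFN libraries and 26.0, 30.0 and 28.2 CPM in untreated libraries (-0.80 ± 0.12, adjusted p = 0.00127). Lgals9 (-0.63) and Raet1e, an NKG2D ligand (-0.41), also fell, but lost their calls without IFN library 2 (adjusted p = 0.0759 and 0.0609), Lgals9 also without IFN library 1. In all 3 of 13 ligands rose and 3 fell, 1 of them without IFN library 2.

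The promoter of Cd274 is shown for the same reason as those of the GTPases (GRCm38.p6, chr19:29367188-29367487, plus strand). Capitals mark the match to GAAANNGAA, read on the opposite strand, 76 to 68 bases before the start; no TTCNNNGAA lies in the window.
Cd274: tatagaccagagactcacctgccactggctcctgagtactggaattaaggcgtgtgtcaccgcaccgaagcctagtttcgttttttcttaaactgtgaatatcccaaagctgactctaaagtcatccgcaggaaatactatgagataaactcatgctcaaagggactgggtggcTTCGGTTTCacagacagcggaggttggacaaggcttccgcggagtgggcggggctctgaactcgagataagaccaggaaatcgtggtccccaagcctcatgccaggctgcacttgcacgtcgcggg

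Of 15 tested CXC and CC chemokines 8 rose and none fell, with a median of 1.07, and their summed level was 5299, 5589 and 6763 TPM in IFN libraries, against 2112, 2100 and 2199 TPM in untreated libraries. Cxcl9 and Cxcl10 draw CXCR3-bearing T and NK cells. Cxcl9 (ENSMUSG00000029417) had 84.5, 93.6 and 128 CPM with IFN and 2.52, 4.64 and 3.17 CPM without (4.88 ± 0.24, adjusted p = 7.01e-07). Cxcl10 had 1540, 1560 and 2150 CPM with IFN and 490, 576 and 524 CPM without (1.72 ± 0.13, adjusted p = 2.95e-06). Per length, Cxcl10 was the more abundant of them, at 3160 TPM with IFN and 982 TPM without, against 71.8 TPM with IFN and 2.73 TPM without for Cxcl9. In both, IFN library 3 was the highest. The neutrophil attractant Cxcl1 had 151, 179 and 199 CPM with IFN and 32.1, 29.0 and 31.2 CPM without (2.52 ± 0.10, adjusted p = 1.19e-08). Ccl2, which draws monocytes, had 606, 678 and 799 CPM with IFN and 247, 215 and 247 CPM without (1.56 ± 0.14), and Cxcl16 rose by 1.18 (± 0.11).

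The promoter of Cxcl10 is shown because its transcript gained most in absolute level among genes that rose at least 2-fold (GRCm38.p6, chr5:92348840-92349139, minus strand). Capitals mark the response element core GAAANNGAA 213 to 205 bases before the start and the NF-kB motif GGANTTTCC, read on the opposite strand, 158 to 150 bases before it.
Cxcl10: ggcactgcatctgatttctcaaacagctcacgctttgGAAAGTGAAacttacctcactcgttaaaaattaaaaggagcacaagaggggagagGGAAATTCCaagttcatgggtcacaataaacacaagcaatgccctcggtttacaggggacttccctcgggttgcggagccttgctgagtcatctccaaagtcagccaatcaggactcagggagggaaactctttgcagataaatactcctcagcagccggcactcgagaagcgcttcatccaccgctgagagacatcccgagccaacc

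Cytokine and growth factor genes rose more modestly. Of 21 tested, 9 rose and none fell, with a median of 0.41, but only 4 or 5 of them passed when any 1 of the 6 wild-type libraries was left out. Csf1, the macrophage growth factor, had 464, 489 and 542 CPM in IFN libraries and 292, 305 and 296 CPM in untreated libraries (0.74 ± 0.07, adjusted p = 4.13e-05). Hbegf, a ligand of the EGF receptor, had 80.6, 82.4 and 84.2 CPM with IFN and 40.7, 39.9 and 40.9 CPM without (1.02 ± 0.07, adjusted p = 1.23e-06). Il11 (0.74 ± 0.11) and Vegfc (0.72 ± 0.13) rose too. Of 15 cytokine receptor chains 3 rose and 1 fell. Il15ra, which presents IL-15 to lymphocytes, had 24.2, 24.4 and 34.4 CPM with IFN and 9.05, 10.2 and 9.12 CPM without (1.55 ± 0.16, adjusted p = 7.19e-05). Il6ra, the IL-6 binding chain, fell, with 20.8, 21.5 and 13.8 CPM with IFN and 42.6, 49.0 and 42.1 CPM without (-1.25 ± 0.17, adjusted p = 0.000541). Tnfrsf1a, the main TNF receptor, rose by 0.44 (± 0.08; adjusted p = 0.0589 with the 6 wild-type libraries alone). Osmr, the oncostatin M receptor, rose by 0.74 but lost its call without IFN library 1 or 3 or untreated library 1 or 3 (adjusted p up to 0.13).

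Serpina3f, a secreted protease inhibitor of the Serpina3 cluster, had 3100 counts over the IFN libraries (32.2, 30.6 and 33.1 CPM) and 0 counts over the untreated libraries. Set against 3 counts over the untreated group, its level was at least 1080-fold higher. Its neighbour Serpina3g had 29.4, 30.5 and 25.7 CPM with IFN and 1.88, 0.816 and 2.08 CPM without (4.17 ± 0.27, adjusted p = 1.23e-06). Of 13 tested serpins 4 rose and 3 fell, though only 2 rose without IFN library 1 or 3 or untreated library 3. Serpinb6b (-0.56 ± 0.08) and Serpinb9b (-0.85 ± 0.11), inhibitors that act inside cells, were among those that fell. Besides Serpina3f, 3 genes that rose had 3 or fewer counts over the untreated group, and they are named after their values were seen. Sectm1b had 37 counts over the IFN libraries and 2 over the untreated ones, Slc6a19 34 and 3, and Dlgap3 20 and 2. Slc6a19 lost its call without any library but untreated library 2 (adjusted p up to 0.121), and Dlgap3 without IFN library 2 or 3 or untreated library 2 or 3 (adjusted p up to 0.102).

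Host defence enzymes rose from low or moderate levels. Of 17 antimicrobial and metabolic effector genes 9 rose and none fell, with a median of 0.71. Nos2, the inducible nitric oxide synthase, had 69.0, 67.9 and 87.6 CPM in IFN libraries and 11.7, 11.2 and 11.5 CPM in untreated libraries (2.71 ± 0.14, adjusted p = 1.45e-07). Ido1, which degrades tryptophan, had 3.59, 3.35 and 3.82 CPM with IFN and 0.203, 0.141 and 0.244 CPM without (4.18 ± 0.25, adjusted p = 2.91e-06). Acod1, which makes itaconate, had 21.8, 23.3 and 31.2 CPM with IFN and 3.86, 4.25 and 4.88 CPM without (2.55 ± 0.18). Wars, the tryptophanyl-tRNA synthetase (1.04 ± 0.10), Tfrc, the transferrin receptor (1.36 ± 0.12), and Odc1, the entry enzyme of polyamine synthesis (0.82 ± 0.13), also rose.

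Of 8 apolipoprotein L genes and Ubd, 4 rose, with a median of 1.18. Apol6 had 34.4, 33.9 and 28.7 CPM with IFN and 3.97, 3.18 and 2.08 CPM without (3.39 ± 0.23), and Ubd (FAT10), a ubiquitin-like protein that targets proteins to the proteasome, had 7.78, 6.57 and 6.73 CPM with IFN and 0.783, 0.563 and 0.671 CPM without (3.38 ± 0.18). Apol10b rose by 2.09 (± 0.12); Apol7e rose by 2.76, a call lost without any library but untreated library 2 (adjusted p up to 0.0942). Of 13 complement genes 5 rose. C4b had 8.77, 8.42 and 7.78 CPM with IFN and 1.33, 0.957 and 1.31 CPM without (2.79 ± 0.15), and the early proteases C1rb (0.95 ± 0.15), C1s2 (1.58 ± 0.32) and C1ra (0.68 ± 0.13) rose less, C1ra with an adjusted p of 0.052 in the 6 wild-type libraries alone. C3 rose by 0.40, a call lost without any library but IFN library 1 (adjusted p up to 0.142). Large rises outside these lists were those of Gja4, a gap junction protein known from vessels (14.2, 15.7 and 15.5 CPM with IFN, 1.22, 1.10 and 1.19 CPM without; 3.69 ± 0.17), and Mpeg1, a pore-forming protein known from macrophages (5.55, 5.26 and 4.48 CPM with IFN, 0.464, 1.04 and 0.641 CPM without; 2.82 ± 0.41).

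Cell death genes changed in either direction. Of 25 tested, 4 rose and 3 fell, with a median of 0.31; 7 rose without untreated library 2 and 1 fell without untreated library 3. The death receptor Fas had 3.94, 3.73 and 4.03 CPM in IFN libraries and 1.28, 1.18 and 1.31 CPM in untreated libraries (1.63 ± 0.16, adjusted p = 4.62e-05). The inflammatory caspase gene Casp4 rose (0.95 ± 0.16). The survival gene Bcl2 fell, with 13.7, 11.7 and 10.9 CPM with IFN and 17.0, 21.5 and 20.1 CPM without (-0.69 ± 0.14, adjusted p = 0.00697).

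Genes typical of ISGF3 and the antiviral response did not rise as a class. Of 44 tested, 5 rose and 5 fell (11.4% each way), and the median was -0.04. Over all tested genes 4.66% rose and 4.72% fell, so calls in both directions were more frequent in this list. Their summed level was 11470, 11270 and 10950 TPM in IFN libraries and 13570, 10490 and 13490 TPM in untreated libraries, so the groups overlapped. Parp14, an ADP-ribosyltransferase, had 756, 726 and 752 CPM with IFN and 369, 445 and 383 CPM without (0.90 ± 0.09, adjusted p = 5.44e-05). Ifi27 had 57.5, 48.5 and 44.6 CPM with IFN and 22.1, 13.9 and 18.2 CPM without (1.47 ± 0.17, adjusted p = 0.000159). Znfx1 (0.52 ± 0.06), Parp12 (0.41 ± 0.07) and Herc6 (0.41 ± 0.08), all of the antiviral response, were the others that rose. Besides Irf7, the genes that fell, named after their values were seen, were the GTPase gene Mx1 (-0.55), the oligoadenylate synthetase genes Oas1a (-0.52) and Oas3 (-0.28) and Ifi44 (-0.58). The number that fell was 1 without IFN library 2, 3 without IFN library 1, untreated library 1 or untreated library 3, and 9 without untreated library 2. Calls were lost by Ifi44 without any IFN library or untreated library 2 (adjusted p up to 0.14), by Oas1a without IFN library 2 or 3 or untreated library 1 or 3 (up to 0.0779) and by Oas3 without IFN library 2 or untreated library 1 or 3 (up to 0.0787). Mx1 passed whichever library was left out, with 68.3, 60.1 and 61.3 CPM with IFN and 97.3, 83.6 and 95.9 CPM without.

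Many genes of the NF-kB and immediate early pathways rose. Of 21 NF-kB subunits, inhibitors and targets 14 rose and none fell, with a median of 0.48. The number that rose was 9 without IFN library 3 or untreated library 3 and 15 without untreated library 2. Nfkbie, an inhibitor that NF-kB itself induces, had 63.7, 60.6 and 66.3 CPM in IFN libraries and 32.7, 25 and 35.5 CPM in untreated libraries (1.03 ± 0.11, adjusted p = 8.82e-05). Ripk2, a kinase downstream of NOD receptors, had 32.4, 33.8 and 35.5 CPM with IFN and 14.6, 17.9 and 16.1 CPM without (1.06 ± 0.10). Nfkbia (0.76 ± 0.13), Nfkbiz (0.91 ± 0.12) and the caspase-8 regulator Cflar (0.43 ± 0.08) rose as well. Of 23 AP-1 and immediate early genes 11 rose and 1 fell, with a median of 0.48. Without IFN library 3 or untreated library 1, 6 rose, and without untreated library 2, 13 did. Egr1, which follows ERK activity, had 100, 106 and 166 CPM with IFN and 24.9, 40.2 and 21.7 CPM without (2.1 ± 0.24, adjusted p = 0.000176). Junb had 202, 214 and 218 CPM with IFN and 122, 98.3 and 116 CPM without (0.92 ± 0.09), and Jund fell (-0.68 ± 0.09), with 52.6% of its exonic bases overlapping another gene.

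Of 17 feedback genes of the MAPK pathway 5 rose and 1 fell, with a median of 0.01, and 7 rose without untreated library 2. Dusp6, the ERK phosphatase, had 107, 104 and 91.3 CPM in IFN libraries and 48.8, 40.5 and 46.4 CPM in untreated libraries (1.15 ± 0.10, adjusted p = 1.77e-05). Dusp5 (1.00 ± 0.11), Spry2 (0.65 ± 0.11), Spry4 (0.62 ± 0.09) and Dusp4 (0.45 ± 0.08) rose, and Dusp1, named after its values were seen, fell by 0.71, a call lost without IFN library 1 or 2 (adjusted p up to 0.0576). The list of MYC targets and ribosome biogenesis genes had 15 of 36 members higher, none lower and a median of 0.29; 8 rose without IFN library 2. Noc4l (0.69 ± 0.10) and Nop2 (0.45 ± 0.07), both of nucleolar ribosome assembly, were among them. Myc itself rose by 0.71 but lost its call without IFN library 2 or 3 or untreated library 1 or 3 (adjusted p up to 0.147).

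Cholesterol synthesis genes rose. They are driven by the transcription factor SREBP2, which is released when sterols in the endoplasmic reticulum run low. Of 26 tested, 17 rose and 1 fell, with a median of 0.66, and 15 to 17 rose when any 1 wild-type library was left out. The summed level was 1279, 1282 and 1251 TPM in IFN libraries, against 838.0, 739.7 and 864.6 TPM in untreated libraries. Hmgcs1, an early enzyme of the pathway, had 97.0, 88.4 and 82.1 CPM with IFN and 45.7, 42.3 and 42.8 CPM without (1.03 ± 0.08, adjusted p = 4.70e-06). Insig1, which retains SREBP in the membrane and is itself an SREBP target, had 64.2, 64.6 and 61.1 CPM with IFN and 34.1, 28.9 and 32.3 CPM without (1.00 ± 0.08). Idi1, which makes an isoprenoid building block, rose too (0.90 ± 0.10). The member that fell was Insig2 (-0.57, named after its value was seen), a call lost without IFN library 3 or untreated library 1 or 3 (adjusted p up to 0.0732).

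Fatty acid synthesis did not move as a block: 4 of 20 genes rose and 4 fell, with a median of 0.07. Fasn, the fatty acid synthase, had 635, 603 and 690 CPM in IFN libraries and 415, 360 and 371 CPM in untreated libraries (0.75 ± 0.09, adjusted p = 0.000204), and Acly, which supplies acetyl-CoA, rose by 0.51 (± 0.09). Acacb fell by 0.53, a call lost without IFN library 2 or untreated library 3 (adjusted p up to 0.0538). The number that fell was 2 without IFN library 1, untreated library 1 or untreated library 2, 1 without IFN library 3 and 0 without IFN library 2 or untreated library 3, and the number that rose was 2 without untreated library 1 or 3. None of 12 LXR targets and cholesterol efflux genes passed the edgeR test (3 at an unadjusted p below 0.05, 2 by DESeq2; 1 rose without untreated library 2), and their median was 0.06.

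The promoter of Hmgcs1 is shown because it alone of the matched cholesterol gene promoters held a sterol regulatory element by these letters (GRCm38.p6, chr13:119690101-119690400, plus strand); capitals mark the match to TCACNCCAC, 137 to 129 bases before the start. Of the 19 cholesterol genes with a promoter sequence 5.26% held this motif in the window, and of all 10653 tested genes with one 1.02% did.
Hmgcs1: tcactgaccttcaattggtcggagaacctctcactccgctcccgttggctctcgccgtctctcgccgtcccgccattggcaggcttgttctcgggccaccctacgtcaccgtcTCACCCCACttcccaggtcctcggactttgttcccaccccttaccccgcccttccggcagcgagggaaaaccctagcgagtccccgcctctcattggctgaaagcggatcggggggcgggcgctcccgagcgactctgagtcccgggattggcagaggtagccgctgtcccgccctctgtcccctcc

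**Figure D3:**
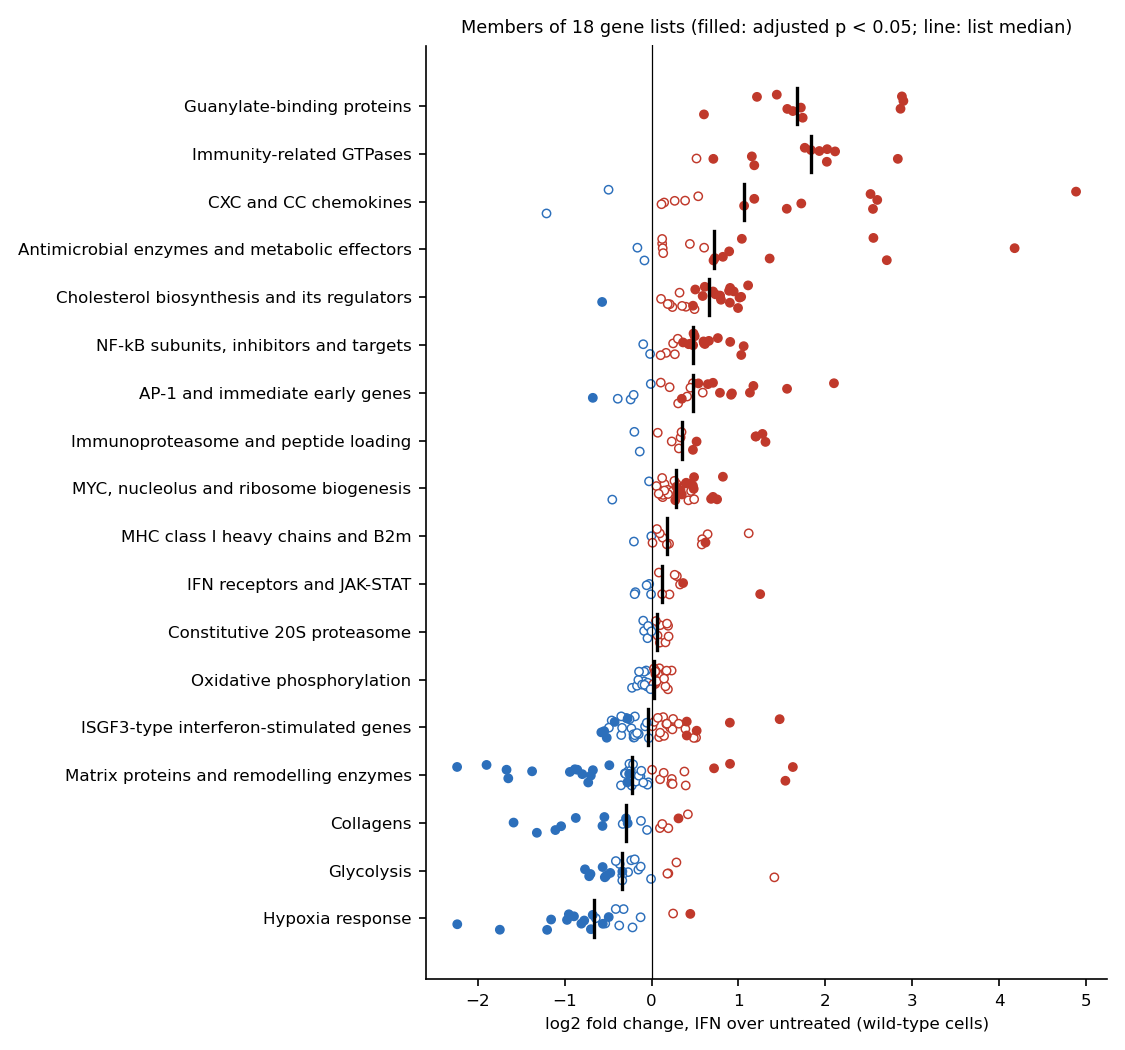
Log2 fold change, IFN over untreated in wild-type cells, of every tested member of 18 gene lists; filled points passed an adjusted p of 0.05, open points did not, and the black line is the median of the list. The medians run from 1.84 for immunity-related GTPases and 1.67 for guanylate-binding proteins to -0.66 for the hypoxia response, with -0.04 for ISGF3-type genes.

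Hypoxia genes fell. They are targets of the HIF transcription factors, which accumulate when prolyl hydroxylases lack oxygen. Of 22 tested, 13 fell and 1 rose, with a median of -0.66, whereas 4.72% of all tested genes fell; 13 to 16 fell when any 1 wild-type library was left out. The summed level was 1150, 1122 and 1004 TPM in IFN libraries and 1791, 1775 and 1760 TPM in untreated libraries. Bnip3, a mediator of mitophagy, had 46.3, 42.8 and 37.8 CPM with IFN and 138, 153 and 135 CPM without (-1.75 ± 0.10, adjusted p = 3.34e-07), with 22.3% of its exonic bases overlapping an antisense gene. Egln3, a prolyl hydroxylase that HIF itself induces, had 38.2, 34.0 and 34.9 CPM with IFN and 66.5, 78.7 and 65.0 CPM without (-0.97 ± 0.10, adjusted p = 7.44e-05). P4ha2, a collagen prolyl hydroxylase, had 74.1, 73.7 and 69.1 CPM with IFN and 144, 137 and 139 CPM without (-0.95 ± 0.07, adjusted p = 3.94e-06). Egln1 (-0.70 ± 0.08) and Mxi1 (-0.81 ± 0.10), an antagonist of MYC, fell less. Ddit4 (REDD1), an inhibitor of mTORC1 that is also a stress target, had 23.1, 23.3 and 19.0 CPM with IFN and 54.1, 39.7 and 56.5 CPM without (-1.20 ± 0.16). The largest fall of the list, named after its values were seen, was that of the adrenomedullin gene Adm (-2.24 ± 0.32), at 0.589, 0.319 and 0.751 CPM with IFN and 2.09, 2.96 and 2.84 CPM without. The member that rose was Stc2 (0.45), a call lost without IFN library 2 (adjusted p = 0.0557).

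Glycolysis, which shares HIF as a regulator, fell in part. Of 22 tested genes 8 fell and none rose, with a median of -0.34; 4 fell without IFN library 2, untreated library 1 or untreated library 3, 5 without IFN library 3 and 11 without untreated library 2. Pfkp, a phosphofructokinase, had 90.9, 86.6 and 90.1 CPM in IFN libraries and 144, 151 and 141 CPM in untreated libraries (-0.70 ± 0.07, adjusted p = 6.29e-05). Pdk1, which closes the entry of pyruvate into mitochondria, had 59.4, 63.6 and 55.2 CPM with IFN and 93.0, 105 and 94.9 CPM without (-0.72 ± 0.09), and the glucose transporter gene Slc2a1 fell by 0.56 (± 0.09). Pfkl fell by 0.77 (± 0.15). None of 29 oxidative phosphorylation genes passed the edgeR test (0 at an unadjusted p below 0.05, 0 by DESeq2), and their median was 0.03.

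The promoter of Bnip3 is shown because its transcript lost most in absolute level among genes that fell at least 2-fold (GRCm38.p6, chr7:138909457-138909756, minus strand). Capitals mark CACGTG, in which the core of the hypoxia response element ACGTG reads on either strand, 108 to 103 bases before the start. The core ACGTG was found in 63.2% of the 19 hypoxia gene promoters and in 25.4% of all 10653.
Bnip3: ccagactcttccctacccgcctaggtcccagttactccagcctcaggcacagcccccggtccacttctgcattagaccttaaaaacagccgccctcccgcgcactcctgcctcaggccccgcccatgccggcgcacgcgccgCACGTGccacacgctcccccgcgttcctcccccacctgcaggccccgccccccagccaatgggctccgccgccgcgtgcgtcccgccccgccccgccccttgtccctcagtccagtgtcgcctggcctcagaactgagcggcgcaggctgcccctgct

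Of 17 collagen genes 9 fell and 1 rose, with a median of -0.29, and 6 to 8 fell when any 1 wild-type library was left out. Col1a2, a chain of type I collagen, had 86.9, 84.1 and 83.9 CPM in IFN libraries and 285, 221 and 261 CPM in untreated libraries (-1.59 ± 0.09, adjusted p = 2.31e-07). Col3a1, of type III collagen, had 42.9, 40.8 and 40.2 CPM with IFN and 113, 89.2 and 107 CPM without (-1.32 ± 0.10, adjusted p = 4.08e-06). Col1a1 (-1.11 ± 0.13), Col4a5 (-1.04 ± 0.15) and Col5a1 (-0.87 ± 0.09) fell as well. The summed collagen level differed less than these genes did, at 850.8, 848.9 and 808.6 TPM with IFN and 965.5, 897.9 and 931.7 TPM without. The member that rose was Col6a3 (0.31, named after its values were seen), of beaded-filament collagen VI, a call lost without untreated library 1 or 3 (adjusted p up to 0.0626).

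Of 43 matrix proteins and remodelling enzymes 15 fell and 4 rose, with a median of -0.23. Loxl2, which cross-links collagen, had 28.3, 25.3 and 28.0 CPM in IFN libraries and 67.1, 77.4 and 67.2 CPM in untreated libraries (-1.38 ± 0.09, adjusted p = 1.11e-06). The secreted proteases Htra3 (-1.67 ± 0.14), Htra1 (-0.73 ± 0.07) and Mmp19 (-1.65 ± 0.18), the basement membrane gene Nid1 (-2.24 ± 0.34) and Spp1, osteopontin (-0.86 ± 0.07), fell. Thbs1, thrombospondin 1, rose, with 11.2, 10.7 and 13.5 CPM with IFN and 4.12, 4.50 and 3.54 CPM without (1.54 ± 0.12, adjusted p = 5.48e-06). The others that rose, named after their values were seen, were tenascin C (Tnc, 1.63), the urokinase receptor gene Plaur (0.90) and Plau (0.72), the last of these a call lost without any library but IFN library 3 (adjusted p up to 0.14).

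Other genes among the 15 largest falls by the naming rule were Cd248 (endosialin, -1.57 ± 0.19), Lgr6 (a receptor of R-spondins, -1.51 ± 0.08), C1qtnf1 (-2.01 ± 0.23), Hacd4 (-1.59 ± 0.13) and Akap12 (-1.60 ± 0.25). Lgr6 had 17.8, 18.7 and 18.9 CPM with IFN and 51.0, 55.6 and 51.1 CPM without, and Cd248 had 12.4, 13.9 and 19.3 CPM with IFN and 36.3, 58.8 and 40.6 CPM without. The naming rule took only genes with no overlap between the groups, so that separation was fixed by the rule.

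Of 21 genes of the TGF-beta and BMP list 5 rose and 3 fell, with a median of 0.11. Fst, follistatin, which binds activins, had 14.6, 15.1 and 13 CPM in IFN libraries and 2.44, 3.01 and 2.96 CPM in untreated libraries (2.34 ± 0.11, adjusted p = 6.99e-08). Bmp2 (1.18 ± 0.13) and Ltbp2 (0.63 ± 0.08) rose. Id2, a BMP target, had 14.3, 17.6 and 20.1 CPM with IFN and 37.1, 40.6 and 35.3 CPM without (-1.12 ± 0.12, adjusted p = 6.24e-05), and Tgfb3 fell (-0.62 ± 0.10). Of 10 tested epithelial identity genes 2 rose and 2 fell, with a median of -0.24, and 0 rose without IFN library 3 or untreated library 1. Those that fell were Cdh1 (-1.26 ± 0.16, 1.46 to 1.62 CPM with IFN, 3.31 to 3.97 CPM without) and Krt19 (0, 0 and 0.21 CPM with IFN, 1.77, 1.41 and 1.71 CPM without, adjusted p = 0.00151). Muc1 rose (adjusted p = 0.0137), a call lost without IFN library 3 or untreated library 1 (adjusted p up to 0.0588). Acta2, smooth muscle actin, rose (1.56 ± 0.24), and Pdgfra fell (-0.43 ± 0.07).

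Proliferation genes changed by small folds. Of the DNA replication genes 11.4% fell and of the G2/M and mitosis genes 15.4%, where 4.72% of all tested genes fell. None of 35 DNA replication genes rose and 4 fell, with a median of -0.07 (2 fell without IFN library 1 or 3, 1 without IFN library 2, untreated library 1 or untreated library 3, and 6 without untreated library 2). Of 39 genes of G2/M and mitosis none rose and 6 fell, with a median of -0.08 (2 fell without IFN library 2 or 3). Ccnb2, a mitotic cyclin, had 64.7, 66.0 and 64.6 CPM with IFN and 92.1, 97.1 and 92.5 CPM without (-0.53 ± 0.07, adjusted p = 0.000759). Cdkn1a, the CDK inhibitor p21, did not pass (0.13 ± 0.10, adjusted p = 0.471). Mki67 had 787, 824 and 959 CPM with IFN and 811, 1450 and 846 CPM without (-0.27 ± 0.21, adjusted p = 0.485; 0.05 without untreated library 2, which was the high one). Of 18 cytosolic heat shock genes 2 rose and 2 fell, with a median of -0.04. Hspa1a (0.95 ± 0.14) and Hspa1b (0.68 ± 0.10), near-identical copies, rose. Hspb8 (adjusted p = 0.00434) and Hsp90aa1 (adjusted p = 0.0143) fell, the latter a call lost without IFN library 3 (adjusted p = 0.0599). Of 28 amino acid stress genes 2 rose and 4 fell, with a median of -0.02, and the serine-folate gene Aldh1l2 (-0.55 ± 0.09) was among those that fell.

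Promoters of raised genes held the interferon motifs more often than promoters in general, as a description of shares. RefSeq promoter windows of 300 bases were matched by symbol for 109 of the 194 genes that rose at least 2-fold, 96 of the 158 that fell at least 2-fold, and 10653 tested genes. The gamma-activated site TTCNNNGAA was in 20.2% of the raised, 9.38% of the lowered and 7.03% of all promoters. The response element core GAAANNGAA was in 23.9%, 6.25% and 7.15% in the same order, and at least 1 of these motifs in 34.9%, 15.6% and 13.4%. The NF-kB motif GGANTTTCC was in 11% of the raised, 1.04% of the lowered and 1.41% of all promoters, and the AP-1 motif TGANTCA in 13.8%, 7.29% and 5.33%. The core ACGTG was in 23.9% of the raised, 22.9% of the lowered and 25.4% of all promoters, so lowered genes as a whole did not stand out by it. All motifs were read on both strands. Of the ISGF3-type genes, whose median did not move, 57.6% of 33 promoters held the response element core, as did all 4 matched GBP promoters and 85.7% of 7 IRG promoters; the gamma-activated site was in 21.2% of the ISGF3-type promoters, 2 of 4 GBP promoters and 71.4% of the IRG promoters. A match is a string of letters and not a bound site.

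**Figure D4:**
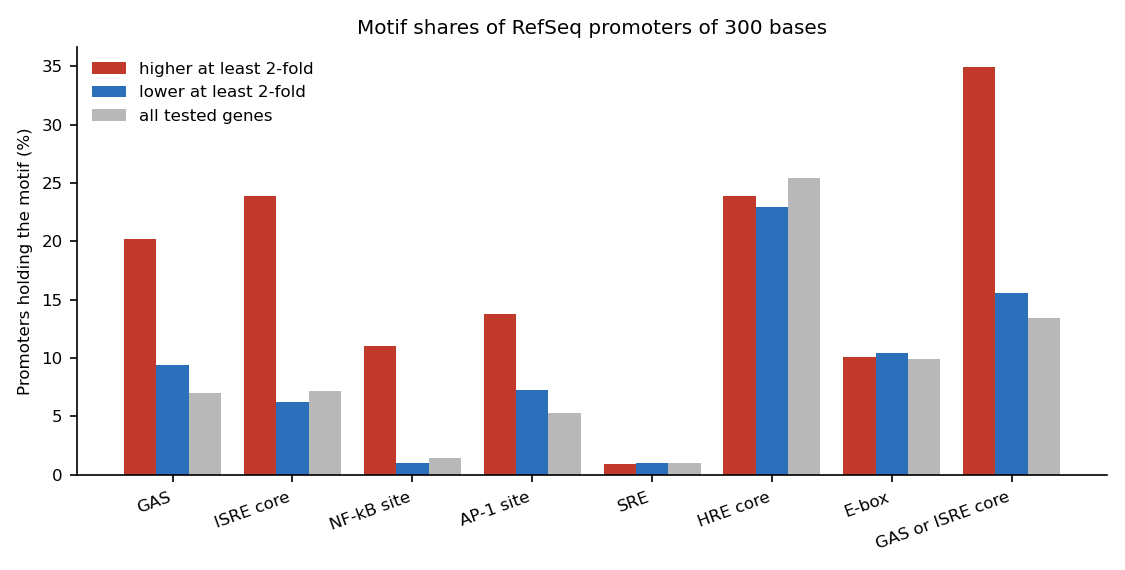
Share of RefSeq promoters (percent, vertical axis) that hold each motif on either strand, for genes that rose at least 2-fold (red, 109 promoters), genes that fell at least 2-fold (blue, 96) and all tested genes (grey, 10653). The red bars stand highest for the gamma-activated site (GAS, 20.2%), the interferon-stimulated response element core (ISRE core, 23.9%), the NF-kB motif (11%) and the AP-1 motif (13.8%), while for the sterol regulatory element (SRE), the hypoxia response element core (HRE core) and the E-box the 3 bars lie close.

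Smarcd1 is a subunit of the SWI/SNF chromatin remodelling complex, and the response of the cells titled as its knockout was set against that of wild-type cells. The difference of the responses passed an adjusted p of 0.05 in 170 of 16676 genes (1.02%), with a positive difference (knockout minus wild-type log2 fold change) in 118 of them and a negative one in 52; a positive difference can be a larger rise or a smaller fall in knockout cells. Of the 777 genes that rose in wild-type cells 78 differed, 64 of them with the larger response in knockout cells, and of the 787 that fell 23 did. Of the GTPases, 9 of 10 GBP genes and 10 of 11 IRG genes passed, with medians of 4.62 and 5.62 in knockout cells, against 1.67 and 1.84 in wild-type cells. Gbp2 had 707 ± 16.7 CPM in knockout cells with IFN and 6.45 ± 1.14 CPM in knockout cells without it, against 577 ± 10.9 CPM in wild-type cells with IFN and 79.2 ± 2.47 CPM in untreated wild-type cells (SD, n = 3 each). With IFN the levels were close, and without it they were far apart, so that the wild-type fold was the smaller one (difference 3.91 ± 0.15, adjusted p = 1.58e-08). Iigp1 showed the same arrangement, at 538 ± 3.41 CPM in knockout cells with IFN and 4.12 ± 1.18 CPM without, against 559 ± 6.61 CPM in wild-type cells with IFN and 138 ± 12.8 CPM without (difference 5.0 ± 0.21, adjusted p = 4.24e-08).

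Cxcl10 and Cd274 also had the larger fold in knockout cells but reached lower levels there: 349 ± 17.5 CPM of Cxcl10 in knockout cells with IFN, against 1750 ± 347 CPM in wild-type cells with IFN, and 39.9 ± 1.83 CPM of Cd274 in knockout cells with IFN, against 112 ± 9.26 CPM in wild-type cells with IFN. Responses larger in wild-type cells included those of Thbs1 (0.04 in knockout and 1.54 in wild-type cells, adjusted p of the difference 0.000257) and Ifi27 (-0.75 in knockout and 1.47 in wild-type cells, adjusted p = 0.000224). The fall of Bnip3 was of this kind, at -0.22 ± 0.10 in knockout and -1.75 ± 0.10 in wild-type cells (difference 1.53 ± 0.14, adjusted p = 5.32e-05), and so was that of Egln3 (0.23 in knockout and -0.97 in wild-type cells, adjusted p = 0.000625). The fall of Col1a2 was -1.59 ± 0.09 in either genotype, with a difference of -0.003 ± 0.121 (adjusted p = 0.995).

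**Figure D5:**
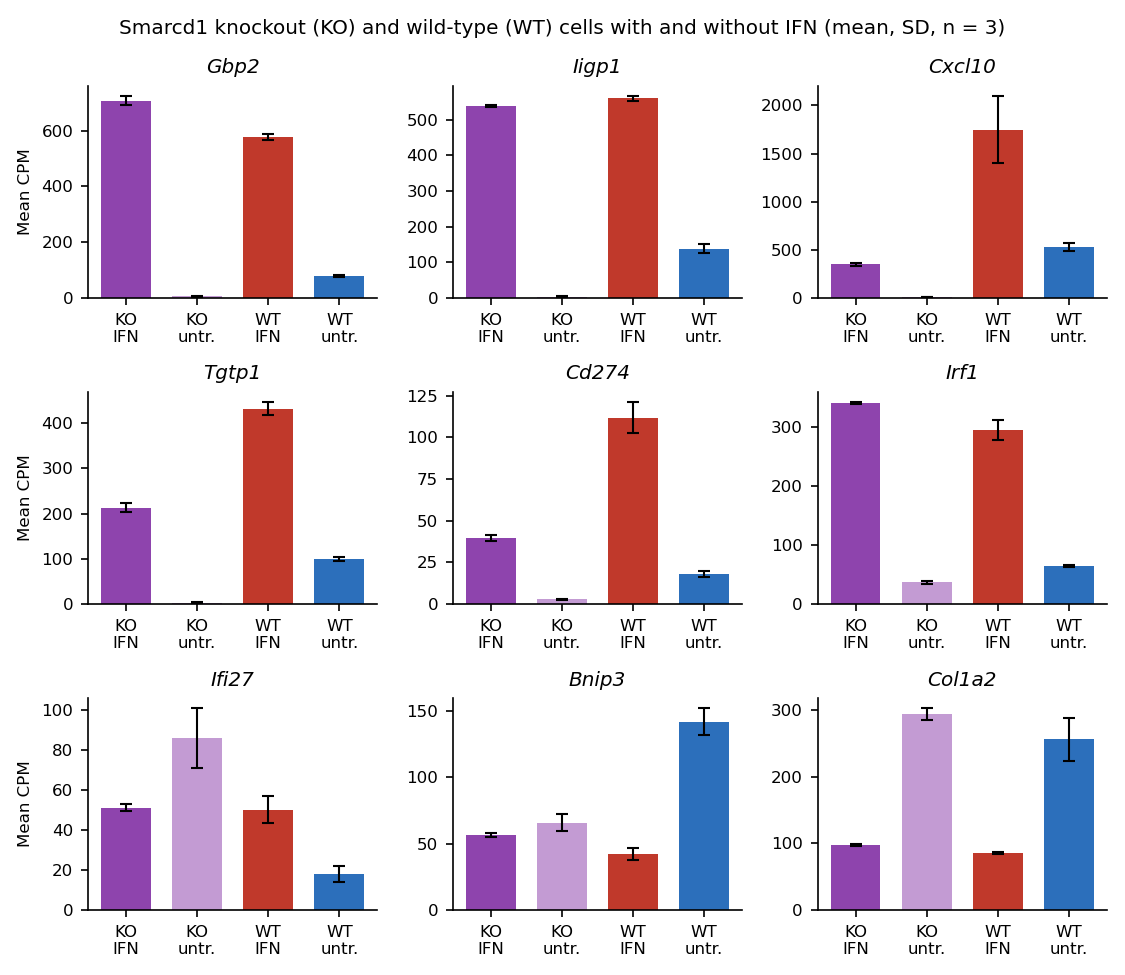
Mean CPM (vertical axis, starting at 0) of 9 genes in Smarcd1 knockout cells with IFN and untreated, then wild-type cells with IFN and untreated; bars are means and error bars SD (n = 3 libraries each). For Gbp2 and Iigp1 the IFN bars are near one another and the untreated bars far apart (6.45 against 79.2 CPM for Gbp2), for Bnip3 the untreated wild-type bar (142 CPM) stands alone, and for Col1a2 the pairs match.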

How the data were processed

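Poly-A RNA of MC38 cells was sequenced in 12 libraries. The submitters' processing notes name HISAT2 2.1.0, FastQC 0.11.2, Trimmomatic 0.36, CASAVA and the build GRCm38, and the sources used here give no counter, TPM program, strand setting or annotation version. The deposited counts are whole reads per gene and the deposited TPM are scaled to gene length and to a fixed total per library. Counts were tested with edgeR 4.0.16 in R 4.3.3 (filterByExpr with a minimum count of 10 and total of 15, TMM scaling, robust quasi-likelihood fit of 4 groups over 12 libraries, 8 residual degrees of freedom), with Benjamini-Hochberg adjustment over 16676 genes and a threshold of 0.05. CPM were computed from the counts. The response difference is the knockout response minus the wild-type response. Alternatives were DESeq2 1.42.0, its size factors, other filters, the 6 wild-type libraries alone, a replicate block and leaving out each library. Gene IDs were matched to GENCODE M21 (51633 of 51826), and overlap with other genes counts shared exonic bases; without stated strand use, reads of overlapping genes cannot be told apart. Promoters are RefSeq windows of GRCm38.p6. Named genes were the 15 largest rises and falls with a mean of at least 2 CPM and no overlap between groups, up to 5 members of each list by smallest p or all members of lists of 13 or fewer, a fixed panel, and the 5 largest response differences each way; others are said to be named after their values were seen, and some genes are not reported here. Members and lists were chosen with earlier results of these data known. Scripts were tested on simulated data.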

Additional observations from a re-analysis of the deposited data

Results flagged for a closer look

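The response to IFN differed between cells titled Smarcd1 knockout and wild-type cells in 170 genes by the edgeR test of the difference itself. Values in brackets are the log2 response of knockout cells minus that of wild-type cells, at an adjusted p below 0.05, for the genes described above. Among guanylate-binding proteins they were Gbp10 (3.07), Gbp2 (3.91), Gbp3 (3.40), Gbp4 (3.17), Gbp5 (2.57), Gbp6 (3.28), Gbp7 (3.12), Gbp8 (1.59) and Gbp9 (2.12). Among immunity-related GTPases they were F830016B08Rik (5.18), Gm12250 (4.09), Gm4841 (5.30), Gm4951 (3.27), Igtp (2.44), Iigp1 (5.0), Irgm1 (2.35), Irgm2 (2.23), Tgtp1 (3.92) and Tgtp2 (3.69). Among STAT, IRF and other transcription regulators they were Batf2 (1.39), Irf1 (1.02), Irf7 (1.70), Irf8 (0.93), Nlrc5 (0.85), Sp110 (1.44) and Stat2 (1.09). The sensor gene Zbp1 (3.29) differed too. Among antigen presentation and the PD-L1 gene they were Cd274 (1.22), Erap1 (1.18), H2-Q4 (0.77), Tap1 (1.44) and Tapbpl (0.64). Among chemokines and effector genes they were Cxcl9 (8.04), Cxcl10 (2.87), Acod1 (2.81), Apol6 (2.50), C4b (1.81), Ido1 (4.27) and Nos2 (1.98). Among antiviral genes with a positive difference they were Herc6 (0.83), Ifi44 (1.77), Parp12 (0.79) and Parp14 (1.22). Among hypoxia and glycolysis they were Bnip3 (1.53), Egln1 (0.57), Egln3 (1.21), Mxi1 (0.64) and Pfkp (0.56). Outside these groups the difference was positive for Fst (0.98) and Lgr6 (0.80) and negative for Aldh1l2 (-0.84), Hspa1a (-0.98), Ifi27 (-2.22) and Thbs1 (-1.50). Cxcl9 and Ido1 had 0 counts over the untreated knockout libraries, so their differences depend on the prior count of the fit. The cause of these differences was not tested.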

How the results depend on the processing

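Against 1564 genes past the threshold (777 higher, 787 lower), fitting the 6 wild-type libraries alone gave 648 (334 higher, 314 lower), which uses fewer residual degrees of freedom. Leaving out 1 library gave 883 to 1783 genes, 472 to 884 of them higher and 411 to 899 lower. The 158 genes lower at least 2-fold became 73 at a mean of at least 2 CPM, where fewer genes are tested. The DESeq2 Wald test gave 2144 genes and, for the difference between knockout and wild-type responses, 357 against 170. The log2 fold change of Mki67 was -0.42 to 0.048 when 1 library was left out, turning to 0.048 without untreated library 2, and did not pass the test either way; the cause was not tested. The fit with the replicate number as a block gave 1282 genes (650 higher, 632 lower) and 143 differences. Deviations of same-numbered libraries from their group means had correlations of 0.0356, -0.0791 and -0.162. With 3 libraries in a group, such correlations cannot decide whether same-numbered samples shared a culture or batch. Without untreated library 2 and IFN library 3 together, an alternative chosen after seeing the data, 1509 genes passed.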
